A study of Caenorhabditis elegans with 2 samples.

Results

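Of the 567 HINF-1 peaks in the conservative list, 239 had a summit more than 500 bp from the 5' end of every gene annotated on WBcel235, and these distal peaks are described here. The other 328 peaks, within 500 bp of a 5' end, are called promoter-proximal and serve as a comparison. The rule used position alone and no signal. The peaks came from ChIP-seq with an anti-GFP antibody on whole young adult worms of strain RW12232, in which CRISPR added TY1, eGFP and 3xFLAG tags to the gene product of F39B2.1 at its own locus. Animals were synchronised as L1 larvae and collected 65 h later. There was 1 group with 2 biological replicates, no untagged or mutant group, and a control experiment that was not used here. Whole animals hold all tissues, so a peak is not tied to a cell type.

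Human HINFP, to which HINF-1 is related, is a zinc finger protein that binds DNA and is known in human cells as an activator of histone H4 genes. Most well-studied targets of such factors are promoters, while sites inside introns, beyond the 3' ends of genes or in repeats are harder to tie to a gene. Beside the true sites of the tagged protein, ChIP-seq peak lists can hold regions where chromatin or repeated sequence is recovered for other reasons, and these lists alone do not separate the kinds. Each peak has a signal value given by the authors' peak caller with no stated scaling, so it ranks peaks within 1 list only.

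The strongest distal peaks shared a long, nearly exact word. It reads TGTGTCCC, then any 2 bases, then CAGGGTGG, 18 bases in all, and was read from the strongest peaks after their values were seen, so it gets no test. Searched on both strands, it has 11 matches in the 6 chromosomes of WBcel235, and 10 of these lie in conservative peaks. Of the 10, 4 are distal peaks (max-2, srh-303, Y71A12B.10 and the intergenic X peak near F22F1.9) and 6 are promoter-proximal, of which 5 are nearest to the histone genes his-37, hil-4, his-24, hil-5 and hil-3. Within 50 bp of the summit the word occurred in 1.67% of distal peaks, 1.83% of promoter-proximal peaks and 0% of the 62739 distal candidate peaks. Candidates are peaks of the same ranked list that overlap neither the conservative nor the optimal list. The 11th match, on V inside emb-4, lay 6561 bp from the nearest ranked peak. Of 21 words of 31 bases sampled around it, 11 were found once in the genome, so its surroundings are partly repeated. The windows below are 30 bases, read 5' to 3' on the strand of the word, with the fixed letters of the word in capitals. They were chosen for holding the word or, for lin-9, a near match, so their likeness within the word is by construction. Of the 5 matches at histone genes, 2 are shown.
max-2 intron, II:13016559-13016588, plus strand: gagacaTGTGTCCCcgCAGGGTGGtaaggc
srh-303 intron, V:17832396-17832425, plus strand: gaaccaTGTGTCCCcaCAGGGTGGtaaggc
near F22F1.9, intergenic, X:8157291-8157320, plus strand: ttggtgTGTGTCCCcgCAGGGTGGtaaaag
lin-9 intron, III:8901282-8901311, minus strand: atgagaTGTGTCCtcgCAGGGTGGtaagac
his-37 promoter, V:9547000-9547029, plus strand: ctgacaTGTGTCCCcgCAGGGTGGttcaat
hil-3 promoter, X:8159090-8159119, plus strand: ggggtaTGTGTCCCgaCAGGGTGGtaaggc
The lin-9 window differs from the word by C8T, counted from 1 at the 5' end of the word. Elsewhere the same lin-9 peak held an exact TGTGTCCC followed after 2 bases by CAGG, the start of the right arm. The letters CG, CA or GA stood in the gap between the arms, and in 5 of the 6 windows TA followed the right arm.

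The peak in an intron of max-2, a p21-activated kinase known for axon guidance, had a signal value of 3045 (II:13016455-13016748). Its values in the ranked lists of the replicates were 1311 in replicate 1 and 1742 in replicate 2, and it was in both thresholded lists. It was the second strongest of all 567 peaks. Of its 31-base words, 23.5% occur once in the genome and the rest more often. The peak lay 2318 bp from the nearest gene 5' end.

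The lin-9 intron peak had 925.2 (III:8901160-8901410), with 344.3 in replicate 1 and 582.3 in replicate 2. LIN-9 belongs to the DREAM complex, which represses cell cycle and germline genes in worms. A promoter-proximal peak lay within 500 bp of the lin-9 5' end as well. The peak in an intron of srh-303, a predicted chemoreceptor gene of the serpentine class, had 241.9 (V:17832366-17832471), with 87.2 and 147.4 in the replicates. The intergenic peak near F22F1.9 had 194.8 (X:8157255-8157360), with 84.0 and 111.9. It lay 1870 bp from hil-3, a linker histone gene whose own promoter peak carries the same word, and all of its 31-base words were unique. The other distal peak with the word, in an intron of Y71A12B.10, had 387.0, with 162.4 and 222.0. All 4 distal peaks with the word, and lin-9, were in both replicate lists, and the lowest of them in signal was the intergenic one on X. The median of the 235 distal peaks without the exact word was 61.8. Since the word was taken from these peaks, their high signal is no support for it. The max-2, lin-9, srh-303 and Y71A12B.10 peaks were also in the same group of linked sequence, described with the repeat families below.

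Most distal peaks were far weaker. The lowest, median and highest signal values were 2.22, 62.4 and 3045, with an interquartile range from 54.6 to 79.8. By place, medians ran from 56.1 in 5' UTRs (4 peaks) and 56.4 in coding exons (50) through 59.0 in introns (48), 60.4 in 3' UTRs (20) and 63.3 in noncoding exons (12) to 67.1 in intergenic sequence (105). The interquartile ranges of these places overlapped. The introns held the 5 strongest peaks and 9 of the 25 strongest, and intergenic sequence held 11 of the 25.

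**Figure D1:**
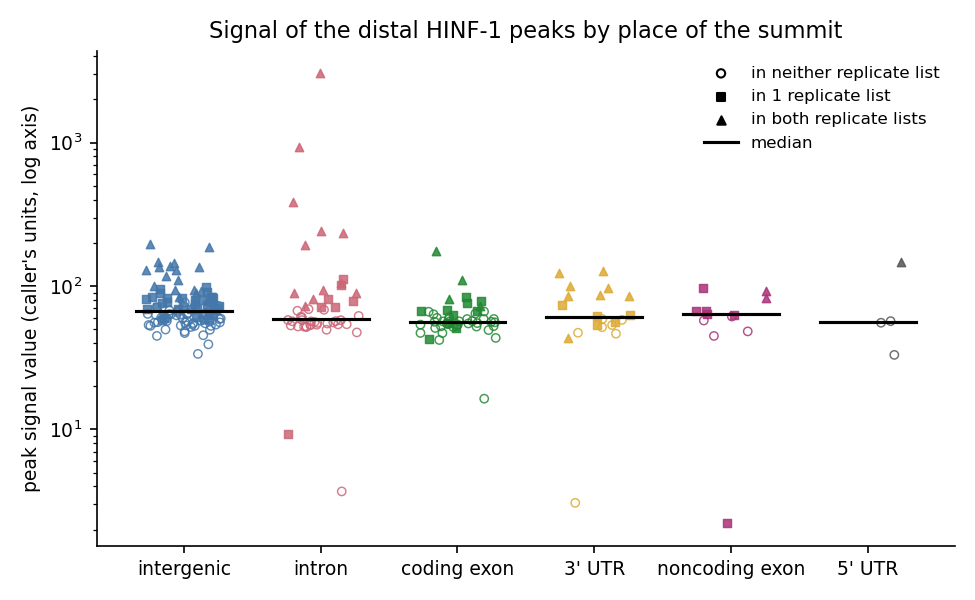
Signal value of each of the 239 distal peaks (log axis) by the place of its summit; the line is the median, and the marker shows whether the peak was in neither, 1 or both replicate lists. Intron peaks reach 3045, while the place medians lie between 56.1 and 67.1.

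In an intron of cmk-1, the calmodulin-dependent kinase I, a peak had 235.8 (IV:1831314-1831543), with 87.1 and 150.9 in replicates 1 and 2. Its sequence is a tandem repeat in which GATCTGGGG occurs 8 times, and 27.0% of its 31-base words are unique. A window from this repeat is shown with 1 unit in capitals.
cmk-1 intron, IV:1831411-1831440, plus strand: gcctgcctagGATCTGGGGtaggcctgccc
In an intron of ckk-1, the kinase that activates CMK-1, a peak had 111.5, with 32.3 and 76.9, and it was in the replicate 2 list only. Of the genes listed, 2 of 3 calmodulin-dependent kinases (cmk-1 and ckk-1, not unc-43), 1 of 3 p21-activated kinases (max-2) and 1 of 8 DREAM genes (lin-9) held a distal peak. Of all 46890 annotated genes, 19973 of them coding, 0.252% did. Where a coding and a noncoding gene both held a summit, the coding gene was named as host. The listed genes are coding, and 126 of the 134 distal peaks inside genes had coding hosts by this rule. The share among coding genes alone is therefore higher than 0.252%. The lists are short and were chosen with these peaks known, so the counts are descriptions.

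Signal in the 2 replicates was read from their own ranked lists. All 239 distal peaks overlapped a ranked peak of replicate 2 and 234 one of replicate 1. Thresholded support was thinner. The replicate 1 list held 68 distal peaks (28.5%), where 31.0% of all conservative peaks were in it, and the replicate 2 list held 88 (36.8%), against 38.8% of all. Both lists held 47 (19.7%, 95% Wilson interval 15.1 to 25.2), against 20.8% of all 567 and 21.6% (17.5 to 26.4) of promoter-proximal peaks. At least 1 list held 109 (45.6%), where the share of all 567 was 49.0%, and neither held 130. The difference from promoter-proximal peaks in both lists did not pass (odds ratio 0.886, Fisher's exact test, Benjamini-Hochberg adjusted p = 0.601 over the 10 tests made). Intervals and tests here cover the number of peaks only. Peaks are not biological replicates, and the sequencing depth is unknown from these files.

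Support differed by place. Of 3' UTR peaks, 8 of 20 were in both lists and 7 in neither. Intron peaks were in both in 12 of 48 and in neither in 29. Coding exon peaks were in both in 4 of 50 and in neither in 36, the thinnest support of any place with more than 4 peaks. Intergenic peaks were in both in 20 of 105 and in neither in 51. Among the 25 strongest peaks 23 were in both lists, and among the other 214 there were 24. Differences between places were not tested.

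**Figure D2:**
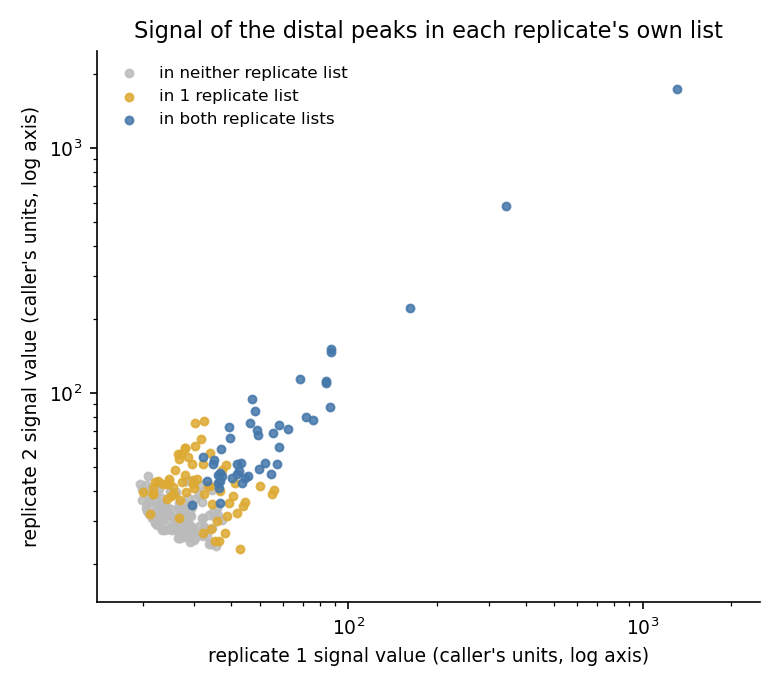
Signal value of each distal peak in replicate 1 (horizontal) and replicate 2 (vertical), both log axes, from the replicate's own ranked list and coloured by presence in the thresholded lists. The max-2 peak, at 1311 and 1742, stands far from the rest, and peaks in neither list crowd at the low end.

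Distal summits lay in intergenic sequence more often, and in introns and coding exons less often, than distal candidates did. Intergenic summits made up 43.9% (37.8 to 50.3) of distal peaks and 25.6% of distal candidates (odds ratio 2.28, Fisher's exact test, adjusted p = 3.3e-09). In 3' UTRs the shares were 8.37% (5.48 to 12.6) and 3.26% (odds ratio 2.71, Fisher's exact test, adjusted p = 0.000226), and the former was 14.4% without replicate 1 and 13.1% without replicate 2. Of the 2000 candidates of highest signal, 4.9% were in 3' UTRs (odds ratio 1.77, Fisher's exact test, adjusted p = 0.0442), 30.5% were intergenic and 37.7% were in coding exons. In the ranked list the median signal was 18.2 for all distal candidates and 40.4 for these 2000. Coding exons held 20.9% (16.2 to 26.5) against 35.6% (odds ratio 0.478, Fisher's exact test, adjusted p = 3.12e-06), with 14.4% without replicate 1 and 13.1% without replicate 2. Introns held 20.1% (15.5 to 25.6) against 32.9% (odds ratio 0.511, Fisher's exact test, adjusted p = 2.51e-05). The intron call ended against the 2000 candidates of highest signal (24.7%, adjusted p = 0.162, Fisher's exact test), with the replicate 1 list alone (22.6%, adjusted p = 0.0685) and among peaks with an irreproducible discovery rate (IDR) of at most 0.001 (24.1%, adjusted p = 0.241).

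**Figure D3:**
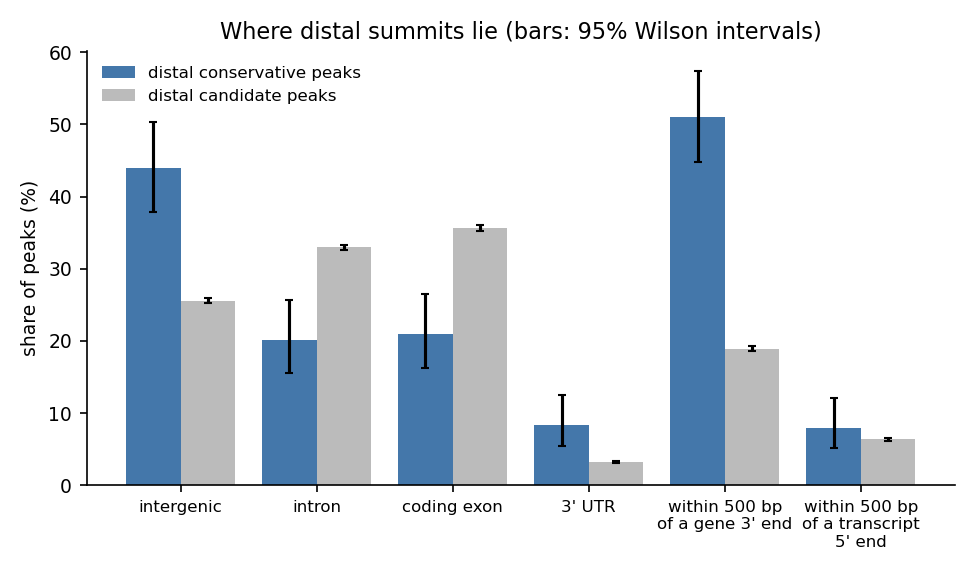
Share of the 239 distal conservative peaks and of the 62739 distal candidates (vertical axis, percent) in each place and near gene ends, with 95% Wilson intervals. Intergenic, 3' UTR and gene 3' end shares are higher in the conservative peaks, and intron and coding exon shares are lower.

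Many distal peaks lay at the 3' ends of genes. Summits within 500 bp of a gene 3' end numbered 122 of 239 (51%, 44.7 to 57.3), where the distal candidates had 18.9% (odds ratio 4.46 by Fisher's exact test, adjusted p = 1.08e-27). Of the 2000 candidates of highest signal, 25.1% were that close. Closeness to a 3' end is not called particular to distal peaks, since 260 of 328 promoter-proximal peaks (79.3%) were also within 500 bp of one. Genes of all kinds count here, and a summit near the 5' end of a short gene is near its 3' end by construction. By place the 122 distal summits were 62 of 105 intergenic, 30 of 50 coding exon, 19 of 20 3' UTR, 7 of 48 intron, 4 of 12 noncoding exon and 0 of 4 5' UTR peaks. For 116 of the 122 the nearest 3' end was that of a coding gene. Counting coding genes only, 118 summits were within 500 bp, 41 of them within 100 bp and 85 within 200 bp. Of the 118, 90 (76.3%) lay beyond the gene, against 47.3% of candidates within the same distance. The fullest 100 bp interval was 100 to 200 bp beyond the 3' end, with 39 of 239 summits (16.3%) against 1.89% of candidates.

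Intergenic summits lay between the 3' ends of 2 converging coding genes in 39 of 105 cases (37.1%), where 12.3% of intergenic candidates did. They lay between diverging genes in 11 (10.5%), against 31.0%, and the remaining 55 lay between a 3' end and a 5' end. Diverging genes place 5' ends on both sides. The 118 summits near a coding 3' end belonged to 116 genes. A conservative peak within 500 bp of the gene's own 5' end was also found for 11 of these (9.48%), where 1.32% of all coding genes had one. They include pgl-3, eef-1A.1, eef-2, cox-5A, snrp-200 and his-63.

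**Figure D4:**
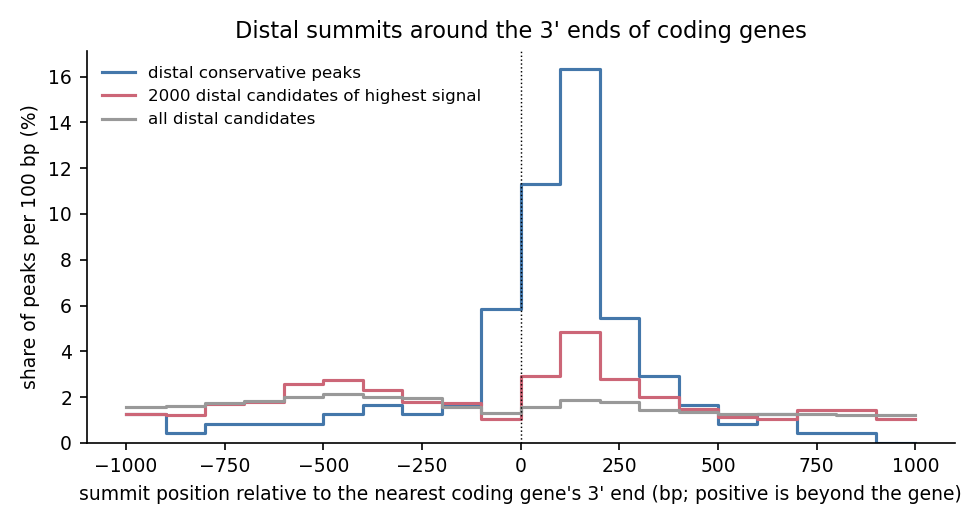
Share of distal summits per 100 bp (vertical) by position relative to the nearest coding 3' end (horizontal, positive values beyond the gene), for the conservative peaks, all distal candidates and the 2000 candidates of highest signal. The conservative peaks rise to 16.3% at 100 to 200 bp beyond the end, where all candidates have 1.89%.

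Ribosomal protein genes were among those with a peak past the 3' end. Of 78 coding genes with an rpl- or rps- symbol, 9 had a distal summit within 500 bp of their 3' end, (11.5%, where 0.581% of all coding genes did), with 10 peaks in all, from 119 to 445 bp beyond the gene. This grouping was made after the values were seen and has no test. The rps-6 peak had 134.7, with 58.2 and 74.0 in the replicates, and lay 128 bp beyond the gene. The rps-27 peak was also in both replicate lists. The peaks past rpl-32, rpl-21, rps-14 and the stronger of 2 past rpl-2 were in 1 list, and the other 4 (rpl-11.1, rps-15, rpl-13 and the weaker rpl-2 peak) were in neither.

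The next genes with a peak at the 3' end were picked by name after their values were seen, and form no tested or counted group. For prg-1, which encodes a Piwi Argonaute, the peak had 104.7 (52.0 and 52.1 in the replicates) and lay 130 bp beyond the gene, in an intron of D2030.12. For csr-1, another Argonaute, it had 80.8 (37.1 and 45.8), 60 bp beyond. The P granule genes pgl-3, pgl-1 and glh-1 had 80.5, 71.6 and 69.5, at 198, 3 and 124 bp beyond their ends, each in 1 replicate list. The peak in the 3' UTR of car-1, an RNA-binding protein of germ granules, had 97.2 (37.0 and 59.0) and lay 48 bp before the end. Values of 85.2 were found at klp-18, a kinesin of the oocyte spindle, and at par-5, a 14-3-3 protein, and 86.6 at ran-1, the nuclear transport GTPase. The peak past hcp-3, the centromeric histone H3, had 66.6 and lay 52 bp beyond.

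The strongest 3' UTR peak was in lelo-2, at 127.3 (55.7 and 69.0), 37 bp beyond the converging gene Y82E9BR.3. The next was in lin-29, a zinc finger gene of the larval to adult switch, at 122.2 (49.2 and 67.3), and it lay 125 bp beyond hmg-12, a gene of the HMG family of chromatin proteins. The third was in tir-1, the SARM1 orthologue of innate immunity, at 99.2 (39.6 and 65.7), 92 bp before the gene's end. In coding exons the strongest were lmd-2, at 174.1 (86.9 and 87.7), 136 bp before its 3' end, and mdt-26, a Mediator subunit gene, at 110.9 (57.1 and 51.6). The next were chmp-7 (83.4), 164 bp past rpl-32, and F31E3.12 (80.5), 53 bp past eef-1A.1, a translation elongation factor. Of these 4 coding exon peaks 3 lay near a gene 3' end.

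Histone genes had distal peaks as well as promoter ones. The annotation holds 80 genes with a his- or hil- symbol, and genes with 9 of these symbols lay within 5000 bp of a distal summit, at 7 peaks. On IV, 3 peaks lay past the ends of core histone genes. The peak 107 bp beyond his-45 had 109.6 (39.4 and 72.8), that 139 bp beyond his-58 had 98.1 (31.5 and 65.0), and that 127 bp beyond his-63 had 58.3. The annotation gives the symbols his-45, his-46, his-47 and his-58 to more than 1 copy, and copies share sequence, so reads may be split between them. The genes his-46, his-47 and his-64 were also within 5000 bp of these 3 peaks. All 3 held GGCCCT, 4 bases and AGGGCC, the form of the stem and loop at the end of histone mRNAs. That palindrome has 57 matches in the genome, of which 7 lie in conservative peaks. Within 50 bp of the summit it was in 0% of distal, 0.61% of promoter-proximal and 0% of distal candidate peaks. At the linker histone genes, a peak of 64.2 lay in the coding exon of hil-4, one of 80.5 lay 3332 bp beyond hil-4 (the pgl-3 peak above), and one of 76.8 lay 912 bp from hil-6. The hil-4 exon peak was in neither replicate list. Its summit lay 594 bp from the nearest gene 5' end and 580 bp from the nearest other conservative summit, and the hil-4 promoter peak with the long word had 1252. The hil-6 peak held TGTGTCCC, the left arm of the long word, and was in neither replicate list.

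Repeated sequence was more common in distal than in promoter-proximal peaks, by a margin that depended on the cut. Fewer than 50% of 31-base words were unique in 52 distal peaks (21.8%, 17.0 to 27.4) and in 12 promoter-proximal ones (3.66%, 2.11 to 6.28), and the odds ratio was 7.32 (adjusted p = 7.25e-11, Fisher's exact test). With a unique share under 0.9 as the cut, the shares were 33.1% and 23.5% (odds ratio 1.61, adjusted p = 0.019, Fisher's exact test). At the 50% cut the distal share was 33.3% without replicate 1. Among distal candidates 5.17% were repeated, and 13.7% of the 2000 of highest signal. By place, 29 of 105 intergenic peaks, 15 of 48 intron, 5 of 12 noncoding exon, 2 of 4 5' UTR, 1 of 50 coding exon and 0 of 20 3' UTR peaks were repeated, and 12 distal peaks held no unique word at all. The repeated peaks had a median signal of 80.1 against 58.9 for the 187 others, and 13 of the 25 strongest were repeated. They were near a gene 3' end in 5 of 52 cases (9.62%), and the others in 117 of 187 (62.6%), so the repeats and the gene ends were largely separate peaks. Both replicate lists held 19 repeated peaks (36.5%) and 28 others (15.0%). How reads that match several places were assigned is not given in the sources used here, and its part in these values was not tested.

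**Figure D5:**
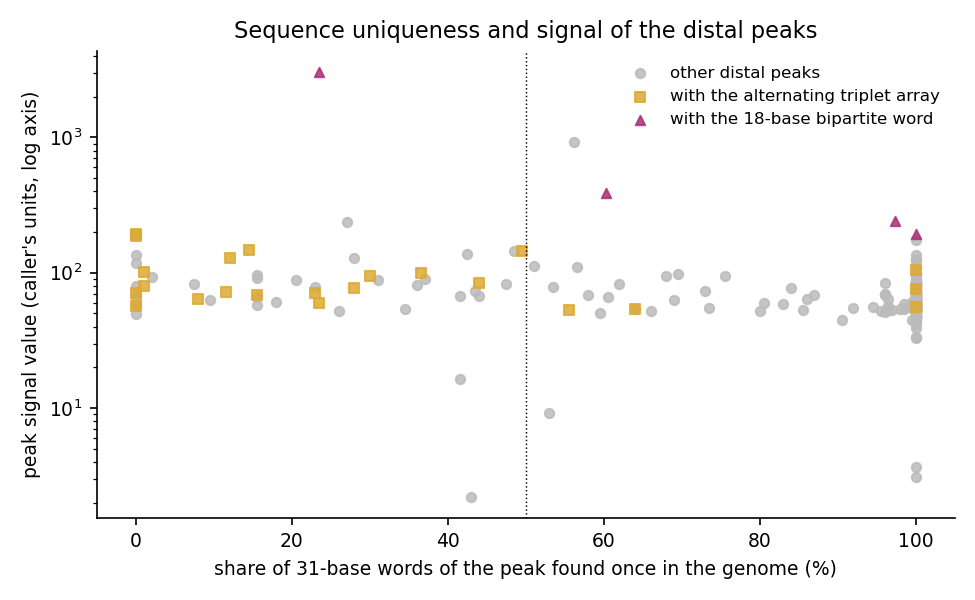
Signal value (log axis) against the share of a distal peak's 31-base words found once in the genome (percent), with the dotted line at 50%. Peaks with the alternating triplet array lie mostly left of the line, and the 4 with the 18-base word reach from 194.8 to 3045 on both sides of it.

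The largest family of related peaks was an array of alternating triplets. Grouping distal peaks that share at least 10 words of 15 bases put 60 of 239 (25.1%) into 15 groups. A peak joined a group by sharing that many words with any member, so not every pair in a group need share sequence. The largest group had 19 peaks on 5 chromosomes, 18 of them in repeated sequence, 12 intergenic and 5 in introns. All 19 held GAA, TTC and GAA, each 2 bases apart, the form of the element that heat shock factor binds. The pattern was read from these peaks after their values were seen. It was within 50 bp of the summit in 8.37% of distal, 1.83% of promoter-proximal and 0.802% of candidate peaks, and 1.15% of the 2000 candidates of highest signal. Anywhere in the peak it was found in 23 distal peaks, with 416 of the 16904 genomic matches. TTCTAGAA also occurred in 23 distal peaks, 21 of them with the array. Windows from 3 chromosomes show the alternation, with the 3 triplets in capitals.
tir-1 intron, III:3897626-3897655, minus strand: tttttctaGAAagTTCtgGAAcgttccaga
near Y54G2A.41, intergenic, IV:2755680-2755709, plus strand: atgttctaGAAccTTCtgGAAaactcggaa
cua-1 intron, III:13447613-13447642, minus strand: aatgtctgGAAtgTTCcaGAActttctaga
near nhr-291, intergenic, V:15320823-15320852, plus strand: tttttctaGAAaaTTCtgGAAcactccaga
near dop-2, intergenic, V:9603662-9603691, minus strand: actttctcGAAttTTCtaGAAagttctgga

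The strongest array was in an intron of tir-1, at 193.2 (III:3897262-3897351), with 84.2 and 110.1 in the replicates and no unique 31-base word. Another tir-1 array had 101.6 (30.2 and 75.8) and was in the replicate 2 list only. The others among the 25 strongest peaks were the prg-1 peak above, those near ttm-5 (186.0, with 68.4 and 114.7), fbxa-190 (147.5, with 47.1 and 94.9) and Y102A11A.11 (129.0, with 49.0 and 70.5), and one in the 5' UTR of pck-2, a phosphoenolpyruvate carboxykinase gene (145.8, with 71.6 and 80.4). This pck-2 summit lay 1185 bp from the nearest gene 5' end but 7 bp from the 5' end of an annotated transcript. The intron array of cua-1, a copper-transporting ATPase, had 94.1 (44.4 and 44.9). The 23 distal peaks with the array had signal values from 52.7 to 193.2 with a median of 77.8. Both replicate lists held 8 of them and 7 were in neither. In 3 of the 23 all 31-base words were unique, namely the prg-1 peak, one near hcp-3 (75.6) and one in the 5' UTR of tent-5 (55.4).

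After the array, the largest group with shared sequence had 6 peaks on 4 chromosomes, 5 of them in introns, with a median signal of 314.4. It held the max-2, lin-9, srh-303 and Y71A12B.10 peaks. It also held peaks at rpl-21 (83.0) and simr-1 (52.0), which have neither arm of the long word. The long word is too short to give 10 shared words of 15 bases, so each member shares other sequence with some other member. Which pairs share it was not examined. The peak near F22F1.9 was in no group. Other repeat families were smaller. In 4 intergenic peaks CCAGAGAGT occurred 8 or 9 times, and their median 31-base word had from 42 to 161 copies in the genome. They lay near pqn-21 (136.1, with 62.6 and 71.6), Y54F10AL.1 (118.2, with 58.0 and 60.6), Y54F10AM.8 (92.9) and Y53G8AR.1 (58.8), and 3 of the 4 were in both replicate lists. GTGAGACCC occurred 7 to 12 times in an intron peak of pck-2 (89.8) and in peaks near T02H6.3 (83.0) and T02H6.11 (63.5). The ckk-1 peak was in a group with a peak near F46F11.1 (128.4, with 46.5 and 75.8) and one in an intron of C08B6.8. Like the cmk-1 repeat, the peaks under 50% unique near duo-3 (145.2, with 75.9 and 77.9) and M04F3.7 (136.8, with 48.2 and 84.3), belonged to no group.

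Another word joined 3 distal peaks on X. CGCGCAGGG has 77 matches in the genome, 33 of them on X, and its 3 matches within conservative peaks were all in distal peaks of X. It is the core of the MEX motif found at sites on X that recruit the dosage compensation complex, which lowers X expression in hermaphrodites. The word was picked after the values were seen. Windows are shown on the strand of the word, with the word in capitals.
near hpk-1, intergenic, X:4209255-4209284, minus strand: ttgccgctatCGCGCAGGGacacctctttc
near nspc-17, intergenic, X:14525889-14525918, minus strand: tattgcctatCGCGCAGGGacagatgtggt
Y41G9A.17 intron, X:2997112-2997141, minus strand: ttaaatttatCGCGCAGGGaggaagtagcc
All 3 share TAT before the word, and all were wholly unique sequence. Their signals were modest. The peak near hpk-1 had 69.6 (24.2 and 42.7), that near nspc-17 had 63.9 (31.9 and 36.1), and that in Y41G9A.17 had 56.1 (23.5 and 35.2). Only the first was in a replicate list, that of replicate 2.

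Of 6 shorter words chosen from earlier results on these peaks, none was common in the 101 bases around distal summits. CGTCCG, the core of the human HINFP site, was within 50 bp of 0.837% of distal, 3.35% of promoter-proximal and 1.42% of candidate summits. GGGACACA, which is TGTGTCCC on the other strand, was at 2.51%, 3.35% and 0.167%. CGCGCGC was at 3.77%, 6.10% and 0.449%, and CGAACCC at 2.93%, 6.71% and 0.395%. CACGTG was at 3.35%, 2.74% and 2.26%, and TTTCAG, the splice acceptor-like word, at 8.79%, 13.1% and 17.8%. Median GC content within 50 bp of the summit was 42.6% in distal peaks, 47.5% in promoter-proximal peaks and 39.6% in distal candidates.

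In signal, 103 of 239 distal peaks (43.1%, 37.0 to 49.4) exceeded the conservative median of 64.7, against 180 of 328 promoter-proximal peaks (54.9%, 49.5 to 60.2; odds ratio 0.623, Fisher's exact test, adjusted p = 0.00925). With either replicate's list alone the difference no longer passed (44.1% against 54.0% without replicate 1, adjusted p = 0.173; 45.2% against 52.8% without replicate 2, adjusted p = 0.36, Fisher's exact test). Width held little information, since 231 distal peaks were exactly 230 bp. The 2 wider ones were max-2 (294 bp) and lin-9 (251 bp), and 6 were narrower. Wider peaks made up 0.837% of distal and 2.74% of promoter-proximal peaks, which did not pass (odds ratio 0.299, Fisher's exact test, adjusted p = 0.162).

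Alternative 5' ends annotated within genes were also examined. Of distal summits, 19 (7.95%, 5.15 to 12.1) lay within 500 bp of the 5' end of some annotated transcript, where candidates had 6.37% (odds ratio 1.27 by Fisher's exact test, adjusted p = 0.322). With the replicate 2 list alone the share was 3.6%, below the 6.38% of candidates. The 134 distal peaks inside genes had 118 hosts, of which 10 held 2 or more. Noncoding exons of tos-1 held 4, at 96.9, 91.5, 62.8 and 44.8. C30E1.9 on X also held 4, of which the strongest had 82.0 (36.0 and 43.1). Then came tir-1 and pck-2 with 3 each and T24H10.5, epg-9, mnk-1, T26A8.4, dhcr-7 and Y43F8B.2 with 2 each. The peaks of mnk-1, T26A8.4 and Y43F8B.2 were in neither replicate list. Beside the 2 pck-2 peaks, the 5' UTR peaks were in tent-5 and egl-30 (33.1), a G protein alpha subunit gene.

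At the low end, 5 distal peaks had signal values under 30, in dhcr-7 (16.4), T24H10.5 (9.26), Y43F8B.2 (3.69), dli-1 (3.07) and C30E1.9 (2.22). Each overlapped a stronger conservative peak whose summit was 199 to 220 bp away, with signal values from 47.0 to 79.1. A replicate peak that overlaps the weak member can therefore be that of its neighbour. At the distance threshold, the members just inside were near T01C3.2 and in a coding exon of rga-9 at 504 bp (59.9 and 47.0), at clec-149 at 508 bp (55.6), and those of his-58 and his-45 at 510 and 517 bp. Just outside were hrpa-1 at 494 bp (72.0) and T21B10.3 at 495 bp (56.5). The histone peaks past his-58, his-45 and his-63 lay 510, 517 and 537 bp from a 5' end and were thus distal by a small margin.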

How the data were processed

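ChIP-seq of tagged HINF-1 was done on 2 biological replicates of 1 group, and the values used are those of the deposited peak lists on build ce11. Lists come from filtered alignments of 1 or both replicates and another input, per the file headers. No source used here names the caller or aligner. Column 7 of each deposited list holds the authors' signal value per peak, with no stated scaling, and was used only within its list. The authors' ranked list gives the −log10 of the global IDR (how well a peak's rank repeats), and all 567 peaks of the conservative list have a global IDR of 0.01 or less. In the ranked lists, 32 columns that name no sample were not used. Sequencing depth is unknown.

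Genes came from Ensembl release 115 (46890 genes, 19973 of them coding) and sequence from WBcel235 (RefSeq), the assembly that ce11 names. Places were assigned in the order coding exon, UTR, noncoding exon, intron, intergenic. Lists were matched by an overlap of at least 1 bp, and a replicate's value is that of its strongest overlapping ranked peak. The 10 shares were compared by 2-sided Fisher's exact tests with Benjamini-Hochberg adjustment at 0.05, and intervals are 95% Wilson intervals. The genes named are those at the 25 strongest distal peaks, the 4 strongest per place, hosts of 2 or more peaks, histone genes within 5000 bp and members of the kinase and DREAM lists. Other genes, words and families were chosen after their values were seen. Printed windows were centred on a word and not on the summit, as had been planned. Members and lists were chosen with earlier results of these data known. The Fisher and uniqueness code was tested on simulated data. The software was scipy 1.17.1, numpy 2.4.6, pandas 2.3.3 and matplotlib 3.10.9 under Python 3.11.15.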

Additional observations from a re-analysis of the deposited data

How the results depend on the processing

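No paired analysis was possible because only 1 group was sampled. Among 91 alternative values for 11 results, 76 kept both direction and call, or a count within 1.5 times the main one. They include all alternatives for the intergenic, coding exon, 3' UTR, gene 3' end and repeated sequence shares. With 1 replicate left out, the 3' UTR share was 13.1% to 14.4% (8.37% with both), the coding exon share 13.1% to 14.4% (20.9%) and the repeated share 29.8% to 33.3% (21.8%). The count of 239 distal peaks became 54 with an IDR of at most 0.001, and 84 to 111 with the list of 1 replicate alone. The intron share no longer passed against the 2000 candidates of highest signal (20.1% against 24.7%), with the stricter IDR (24.1%), or without replicate 2 (18.9% to 22.6% over the 2 replicates left out). The share above the median signal was 44.1% to 45.2% with 1 replicate left out and no longer passed. The share in both replicate lists turned from lower to higher than in promoter-proximal peaks among peaks above the median signal (44.7% against 39.4%), at or below it (0.735% against 0%) and with the stricter IDR (77.8% against 67.3%), and passed in none of these. At or below the median almost no peak of either set was in both lists, so that direction carries little weight. The lower share of wider peaks passed the test with 250 bp as the distance (0.635% against 3.57%) or with coding 5' ends only (0.587% against 3.98%). The transcript 5' end share turned lower than in candidates within 250 bp (2.93% against 3.43%) and without replicate 1 (3.6% against 6.38%), and was 8.33% without replicate 2. The cause of these changes was not tested. Dropping repeated sequence and keeping 1 peak per cluster within 1000 bp, both added after seeing the data, changed no call; without repeats, 62.6% of distal peaks were near a gene 3' end.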
